A study of Gallus gallus with 3 samples.

Results

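The genes described here encode the machinery that removes introns from pre-messenger RNA and the RNA-binding proteins that guide it. They were taken by gene name: every gene whose name begins with SRSF, SF3A, SF3B, U2AF, SNRP, HNRNP, PRPF, LSM or RBM, each of SRSF, LSM and RBM followed by a digit, or with DHX15. The rule gave 84 of the 19309 genes with a value. By prefix they fall into 7 groups: 9 SR proteins, 8 genes of SF3 and U2AF, 8 SNRP genes, 11 PRPF genes with DHX15, 13 HNRNP genes, 10 LSM genes and 25 RBM genes. The prefix is a name and not a function. Some LSM proteins act on messenger RNA in the cytoplasm, and several RBM proteins have no known place in the spliceosome.

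Messenger RNA of granulosa cells, the somatic cells that surround the oocyte and make steroid hormones, was sequenced from the ovary of the domestic hen. There was 1 library for each of 3 follicle stages, with no treatment: 6 mm follicles before selection (age label 10 to 15 months), F5 follicles in early preovulatory growth (10 to 16 months) and F1 follicles, next to ovulate (10 to 17 months). No source used here gives the breed, the number of hens or follicles behind a library, or the strand setting of the counting. Stage, hen, age label and library can therefore not be told apart, and no difference has a replicate check.

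A spliceosome assembles anew on each intron. The U1 particle marks the 5′ splice site, U2AF and the U2 particle with its SF3a and SF3b complexes mark the 3′ splice site and branch point, and the tri-snRNP of U4, U6 and U5 then joins before catalysis. Sm proteins (SNRP) form a ring around most of these small nuclear RNAs, and LSM proteins form the ring on U6. SR proteins mostly favour the use of an exon and hnRNP proteins often oppose it, so the balance of both families is one input to alternative splicing.

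The libraries held 14923359 (6 mm), 14137511 (F5) and 14086626 (F1) reads. Reads per splicing gene, recovered from the FPKM values as the smallest whole numbers that fit, had medians of 924.5, 807.5 and 515. Summed markers of granulosa cells stood at FPKM 1934, 9149 and 6594. All 10 were above 0 in every library, and 9 reached FPKM 1 in F1. AMH and STAR among them differed widely between stages, so the sum is no measure of granulosa content. Summed markers of theca and smooth muscle were 639, 20 and 17.3 (8 genes), of endothelium 68.8, 13.1 and 2.68 (6 genes), of leukocytes 41.9, 7.49 and 2.38 (4 genes), of surface epithelium 144, 22.7 and 2.80 (4 genes), of erythrocytes 4.36, 0 and 0 (3 genes) and of oocyte 40.4, 9.94 and 0.457 (4 genes). LUM was at 0 in F5 and F1, and TEK and VWF were at 0 in F1. The 6 mm library thus held the most transcripts of other cell types, and their part in the differences described here was not tested. ZP3, a zona pellucida gene, took 0.690%, 1.80% and 13.4% of all reads, so all other genes together held a smaller share in F1. The part of ZP3 in the F1 differences described here was not tested.

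The splicing genes were well expressed at all stages and lower in F1. In FPKM, reads scaled by gene length and library size, 81 of the 84 reached at least 1 in 6 mm, 82 in F5 and 80 in F1. Their summed FPKM was 5465 in 6 mm, 5540 in F5 and 3177 in F1, that is 1.05%, 0.925% and 0.489% of the sum over all genes. The total was nearly the same in 6 mm and F5 and much lower in F1. In bulk samples fewer cells of a type and less RNA per cell cannot be told apart.

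**Figure D1:**
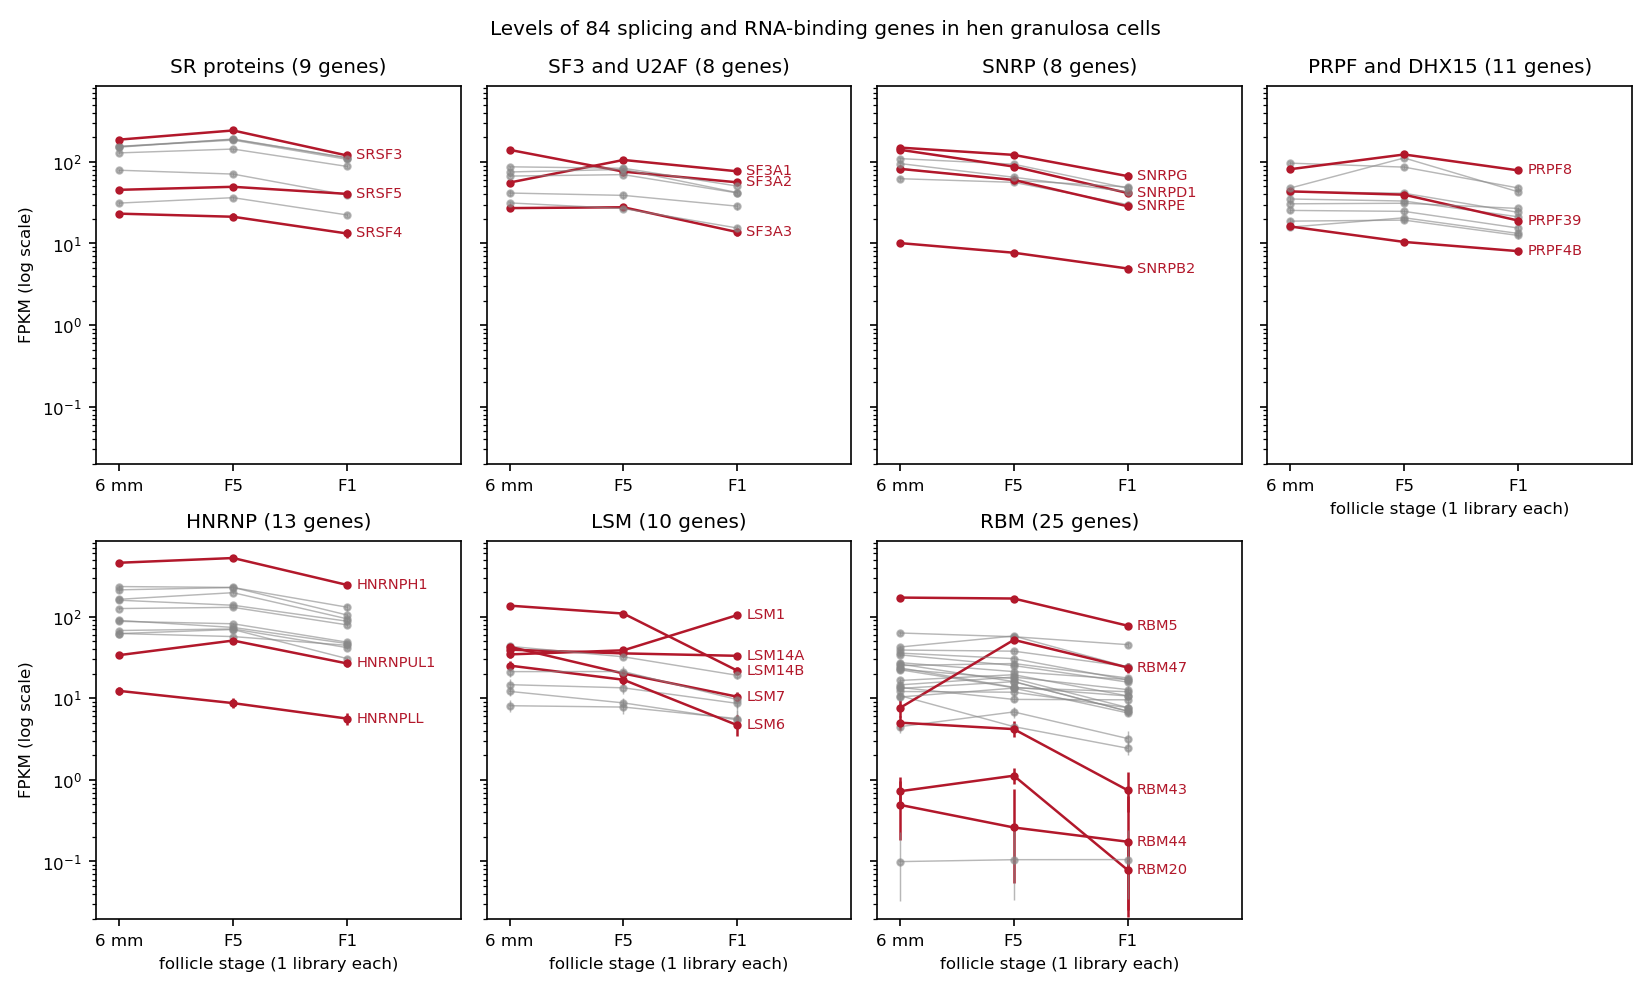
FPKM (log scale) of the splicing genes in the 6 mm, F5 and F1 libraries, by prefix group, with 1 line per gene, exact 95% counting intervals as bars and some genes named in red. Most lines stay level from 6 mm to F5 and go down to F1; LSM1 goes up to FPKM 104.9 in F1, and RBM47 goes up from 6 mm to F5.

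For 80 of the 84 genes the F1 library was the lowest of the 3, against 68.7% of the 12812 genes with FPKM of at least 1 in any library. The highest library was 6 mm for 49 genes (58.3%, against 53.0% of all those genes), F5 for 33 (39.3%, against 32.2%) and F1 for 2 (2.38%, against 14.8%). All 8 SNRP genes and 8 of 10 LSM genes were highest in 6 mm, and 7 of 9 SR protein genes were highest in F5. With groups this small, the counts are a description. They hold for the deposited values. With the median-ratio scaling described below, 36 of 81 splicing genes were higher in F1 than in 6 mm, against 49.7% of all genes.

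From the 6 mm follicle to F5, a step that spans selection into the preovulatory hierarchy, the splicing genes as a set were close to level. A difference here is one of log2(FPKM + 1) between libraries, over genes with FPKM of at least 1 in either, and 2-fold means a difference of at least 1. Of 82 genes measured, 2 were at least 2-fold lower in F5 (LSM7 and RBM24), where 10.8% of all 12611 genes were. Another 2 were at least 2-fold higher, RBM47 among them, against 7.64% of all genes. Their median difference was -0.06, against -0.13 for all genes, and 48 of 82 were below 0, against 58.6% of all genes. The middle part of the set, between the quartiles, spanned 0.48 on the log2 scale, against 0.82 for all genes.

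From F5 to F1, the last stage before ovulation, nearly every splicing gene was lower by a modest and similar amount. Of 82 measured, 81 were below 0, where 78.1% of all 11758 genes were. LSM1 was the exception. At a difference of at least 1.5-fold, 59 were lower, which is 72.0%, against 46.1% of all genes. At 2-fold the set did not stand apart: 19 genes, 23.2%, were lower, against 22.9% of all genes, and 1 was higher, against 5.09%. The median difference was -0.73, against -0.53 for all genes, and 65 of 82 genes lay below that all-gene median. The quartiles were -0.96 and -0.57, a span of 0.39, against 0.87 for all genes. The narrow span was there among more abundant genes too: with FPKM of at least 10 in either library the span was 0.38 for 73 splicing genes and 0.85 for 6569 genes. The exact 95% counting interval of the F1 to F5 ratio lay below 1 for 78 of 82, against 65.1% of all genes, and it held 1 for LSM14A, RBM26 and RBM33. These intervals cover counting error only.

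Over the whole span from 6 mm to F1, 24 of 81 measured splicing genes were at least 2-fold lower, that is 29.6%, against 32.8% of all 12482 genes. LSM1 and RBM47 were at least 2-fold higher, against 7.45% of all genes. The median difference was -0.79, against -0.64 for all genes, and 78 of 81 were below 0, against 76.4% of all genes. These values are as deposited, and the count below 0 depended on the scaling, as given below. The 3 comparisons share libraries, so their values are given side by side and not as independent evidence.

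**Figure D2:**
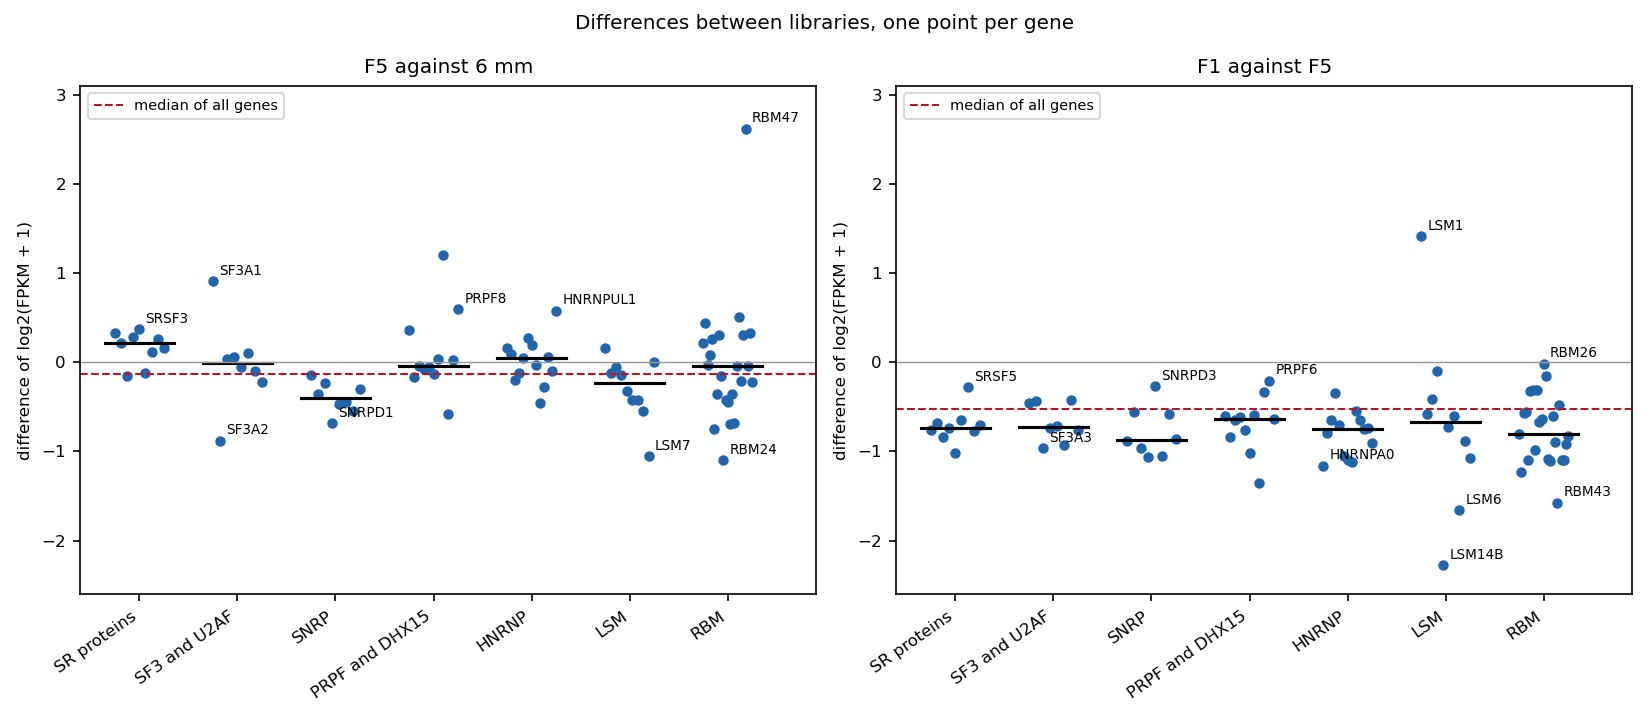
Difference of log2(FPKM + 1) for F5 against 6 mm (left) and F1 against F5 (right), 1 point per gene, by prefix group; black bars are group medians and the dashed line is the median of all genes (-0.13 and -0.53). At the earlier step 8 of 9 SR proteins lie above and all 8 SNRP genes below the dashed line, and at the later step all points but LSM1 lie below 0.

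The size of this F1 difference depended on how the libraries were scaled. Scaling to an equal FPKM sum gave a median of -0.85 for the splicing genes, and an equal sum without the 20 most abundant genes gave -0.64. Scalings that centre the bulk of genes took most of it away: the median was -0.13 with median-ratio size factors, -0.17 with the upper quartile and -0.12 with trimmed means (TMM). With median-ratio factors all genes moved by 0.62 on the log2 scale, so that their own median was 0.00. Scaling to cytosolic ribosomal protein genes, whose own median difference was 0.72 as deposited, gave -1.43. The splicing genes' median lay below the all-gene median under all of these, by 0.13 to 0.30. Each scaling multiplies every gene of a library by the same factor, so both medians move together. That their order held is therefore no separate check. The share of splicing genes lower in F1 was 98.8% at an equal sum (all genes 81.7%), 96.3% without the 20 most abundant (74.8%) and 98.8% with the ribosomal scaling (91.3%). Under median ratio, upper quartile and TMM it was 76.8%, 79.3% and 73.2%, against 49.8%, 52% and 49.2% of all genes.

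Counts at 2-fold depended on the scaling still more. There were 24 splicing genes lower at an equal sum (all genes 26.7%), 8 without the 20 most abundant genes (19.7%) and 72 with the ribosomal scaling (58.7%). Under each of the 3 centring scalings there were 3, or 3.66% of 82, against 11.6% (median ratio), 12% (upper quartile) and 11% (TMM) of all genes. Those 3, LSM14B, LSM6 and RBM43, were at least 2-fold lower under every scaling tried, as were 11% of all genes. In direction alone, 60 of 82 splicing genes were lower in F1 than in F5 under all scalings (all genes 49.2%) and LSM1 was higher under all (8.71%), while 21 had a direction that depended on the scaling. For F5 against 6 mm 28 were lower under all (46.9%), 19 were higher under all (30.6%) and 35 depended on the scaling. For F1 against 6 mm 45 of 81 were lower under all (49.8%), 2 were higher under all (10.1%) and 34 depended on the scaling. As a scaling moves all genes of a library together, a count under all scalings is that under the most extreme one. For genes lower, that was the count with TMM in each comparison, so the scalings are no separate checks. With median ratio alone, 55.6% of the splicing genes were lower in F1 than in 6 mm, against 50.3% of all genes.

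**Figure D3:**
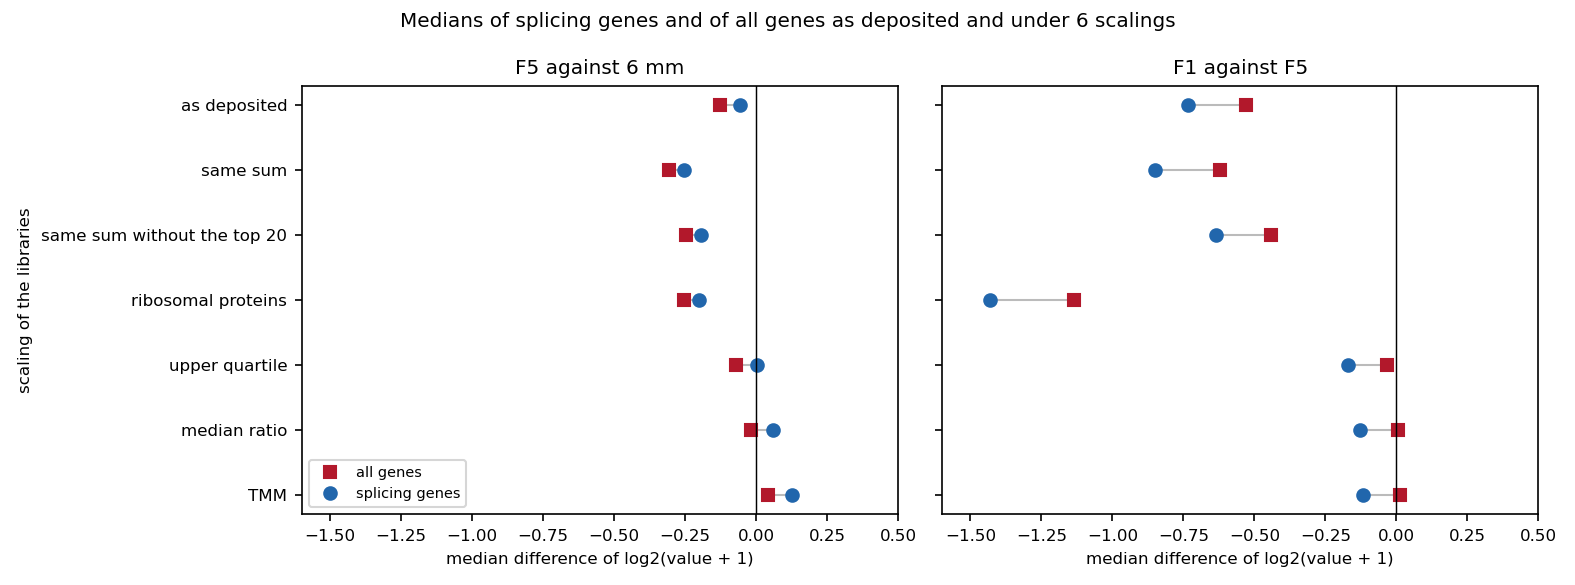
Median difference of log2(FPKM + 1) under the deposited values and 6 scalings, for the splicing genes (circles) and all genes (squares), in F5 against 6 mm (left) and F1 against F5 (right). In F1 against F5 the splicing genes run from -1.43 (ribosomal scaling) to -0.12 (TMM) and lie below all genes each time. A scaling moves both medians together, so their order is no separate check.

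SR proteins bind exonic enhancers and recruit the core machinery. In F5 against 6 mm, 7 of 9 were higher, against 41.4% of all genes, with a median difference of 0.21. The median was above 0 under every scaling (0.02 to 0.40). The number higher, however, ran from 5 of 9 at an equal sum (all genes 30.6%) to all 9 with TMM (53.1%). SRSF3, which also takes part in mRNA export, stood at FPKM 188 in 6 mm, 243 in F5 and 119.9 in F1. SRSF1, the founding member of the family, stood at 152, 191 and 112, and SRSF2, which acts on exonic enhancers, at 155, 189 and 112.5. F5 was the highest library for each of them, with an F5 to 6 mm ratio of 1.30 for SRSF3 (95% counting interval 1.23 to 1.37) and 1.26 for SRSF1 (1.18 to 1.34). In F1 against F5 all 9 were lower, against 78.1% of all genes, with a median of -0.74. Under each centring scaling 8 of 9 were lower, against 49.2% to 52% of all genes. SRSF3 was 2.03-fold lower (1.90 to 2.16), and SRSF5 was the least different, with FPKM 45.5, 49.5 and 40.6. SRSF6 stood at 154, 185 and 108, SRSF4 at 23.2, 21.3 and 13.3, and SRSF11 at 79.1, 70.9 and 39.3. SRSF11 and SRSF4 were the 2 members not highest in F5. SRSF7 and SRSF10 had differences of -0.70 and -0.68 in F1 against F5, close to the group's median.

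The SNRP genes moved another way at the earlier step. All 8 were lower in F5 than in 6 mm, against 58.6% of all genes, with a median of -0.40 that stayed below 0 under every scaling (-0.59 to -0.22). With TMM 7 of 8 were lower, against 46.9% of all genes. SNRPD1, a protein of the Sm ring, stood at FPKM 141 in 6 mm, 87.6 in F5 and 41.5 in F1, so each later library was lower. It was 1.61-fold lower in F5 than in 6 mm (1.5 to 1.73) and 2.11-fold lower in F1 than in F5 (1.91 to 2.34). The ring proteins SNRPE (82.1, 60.1 and 28.6), SNRPF (95.5, 64.8 and 43.1) and SNRPG (149.8, 122 and 67.0) had the same order of libraries. SNRPD3, of the same ring, was at 83.0, 59.6 and 49.3, the smallest difference of the group in F1 against F5 at -0.27. SNRPC, of the U1 particle, stood at 109.8, 93.7 and 47.6. The U2 proteins SNRPA1 (62.3, 56.2 and 30) and SNRPB2 (10.1, 7.70 and 4.93) were also lowest in F1. For F1 against 6 mm, 6 of 8 were at least 2-fold lower, against 32.8% of all genes. This count was 1 under median ratio (all genes 17.3%) and upper quartile (18.6%) and 0 under TMM (16.7%). The median was -1.14 and stayed below 0 under every scaling (-2.00 to -0.40).

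A ratio between genes of one library does not depend on the scaling of that library. The summed FPKM of SR proteins over that of SNRP genes was 1.30 in 6 mm, 2.05 in F5 and 2.10 in F1. For the pair SRSF1 and SNRPD1, chosen after their values were seen, it was 1.08 (95% counting interval 1.01 to 1.15), 2.18 (2.03 to 2.34) and 2.70 (2.44 to 2.99). The 3 intervals did not overlap, but they cover counting error only, and SNRPD1 was the SNRP gene with the lowest difference at both steps. SR proteins over HNRNP genes came to 0.539, 0.607 and 0.663, a smaller range. HNRNP genes over SNRP genes came to 2.42, 3.37 and 3.17, so the rise from 6 mm to F5 was not particular to SR proteins. LSM genes over SNRP genes came to 0.516, 0.552 and 0.717.

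SF3 and U2AF genes serve the branch point and 3′ splice site. Their medians were -0.01 in F5 against 6 mm and -0.72 in F1 against F5, where all 8 were lower (all genes 78.1%) and none by 2-fold on the log2(FPKM + 1) scale (22.9%). Under the scalings tried, 5 to 8 of them were lower (all genes 49.2% to 91.3%). SF3B1, which clamps the branch point helix, stood at FPKM 67.0, 69.8 and 41.6, its SF3b partners SF3B3 at 87.1, 83.6 and 50.5 and SF3B4 at 75.3, 80.9 and 42.0. U2AF1, which reads the AG at the 3′ splice site, stood at 31.4, 26.8 and 15.5, and SF3B6, at the branch point adenosine, at 41.5, 38.9 and 28.7. For these 5 the 6 mm and F5 libraries were near each other and F1 was the lowest as deposited.

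The 3 subunits of SF3a did not keep their proportions. SF3A1 stood at FPKM 55.8 in 6 mm, 105.7 in F5 and 76.7 in F1, which makes 6 mm its lowest library as deposited. Over the scalings its difference in F1 against 6 mm ran from -0.41 to 1.19, so the lowest library depended on the scaling. SF3A2 stood at 140.6, 76.0 and 56.2, which makes 6 mm its highest. SF3A3 stood at 27.1, 27.8 and 13.8. In F5 against 6 mm SF3A1 was 1.89-fold higher (1.80 to 1.99) and SF3A2 1.85-fold lower (1.72 to 1.98), each in the same direction under every scaling. The ratio of SF3A1 to SF3A2, a pair chosen after its values were seen, was 0.397 (0.375 to 0.420), 1.39 (1.30 to 1.48) and 1.36 (1.27 to 1.47), so the 6 mm library stood apart and F5 and F1 overlapped.

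SF3A2 lies beside AMH, the gene of anti-Müllerian hormone, on chromosome 28. The files place SF3A2 at 1962063 to 1966197 and AMH at 1956623 to 1960825, both on the minus strand with a gap of 1237 bases, in a build that no source used here names. AMH, made by granulosa cells of small follicles, stood at FPKM 384 in 6 mm, 18.2 in F5 and 0.779 in F1. Both genes were highest in 6 mm, but in F1 against F5 AMH differed by -3.43 on the log2 scale and SF3A2 by -0.43. The part of AMH reads in the SF3A2 value was not tested.

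**Figure D4:**
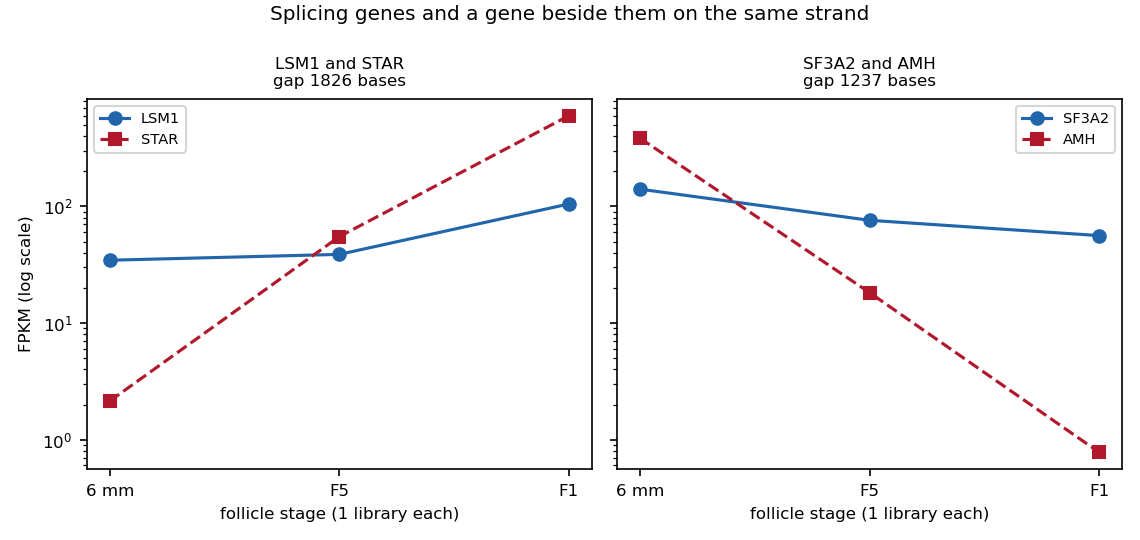
FPKM (log scale) of LSM1 and its neighbour STAR (left) and of SF3A2 and its neighbour AMH (right) in the 3 libraries, with the gap between each pair in bases above the panel. LSM1 and STAR are both highest in F1 (104.9 and 599), and SF3A2 and AMH are both highest in 6 mm (140.6 and 384).

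PRPF genes encode proteins of the U1 particle, the tri-snRNP and the catalytic core. In F1 against F5 all 11 were lower, against 78.1% of all genes, with a median of -0.64. Over the scalings 8 to 11 were lower (all genes 49.2% to 91.3%). At least 2-fold lower were 2, or 18.2%, which is near the 22.9% of all genes. PRPF39, a protein tied to the U1 particle, stood at FPKM 43.5, 39.6 and 19.1 and was 2.07-fold lower in F1 than in F5 (1.80 to 2.40).

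PRPF8, the scaffold at the heart of the spliceosome, stood at FPKM 81.4, 123 and 78.8 and was 1.52-fold higher in F5 than in 6 mm (1.47 to 1.56). PRPF6, which bridges the parts of the tri-snRNP, was almost level at 30.6, 31.1 and 26.9. The ratio of PRPF8 to PRPF6, a pair chosen after its values were seen, was 2.66 (2.54 to 2.78), 3.96 (3.79 to 4.15) and 2.93 (2.79 to 3.08), highest in F5. PRPF19, the ubiquitin ligase of the complex named after it, stood at 96.6, 86.3 and 48.0. The kinase PRPF4B stood at 16.2, 10.4 and 8.06, and PRPF38B at 43.0, 41.3 and 24.1. DHX15, the helicase that takes spent spliceosomes apart, stood at 15.9, 20.7 and 13.3. As deposited, F5 was highest for PRPF8, DHX15, PRPF6 and PRPF4. F1 was lowest for all 11, against 68.7% of all genes with FPKM of at least 1 in any library. With median ratio, 4 of 11 were lower in F1 than in 6 mm, against 50.3% of all genes. PRPF3, PRPF4 and PRPF38A had differences between -0.65 and -0.59 in F1 against F5.

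The HNRNP genes were the most abundant group, with 32.4%, 33.6% and 31.1% of the splicing genes' summed FPKM in 6 mm, F5 and F1. HNRNPH1, which binds runs of G and sets the use of nearby splice sites, was the highest splicing gene of all at FPKM 459, 524 and 245. HNRNPA2B1, which also sorts RNA for transport, stood at 214, 228 and 131, and HNRNPH3, a relative of HNRNPH1, at 234, 229 and 105.1. As deposited, F1 was lowest for all 13 genes, against 68.7% of all genes with FPKM of at least 1 in any library. With median ratio 8 of 13 were lower in F1 than in 6 mm, against 50.3% of all genes. The group median was -0.75 in F1 against F5, where 12 or 13 were lower under each scaling (all genes 49.2% to 91.3%). The 4 at least 2-fold lower, 30.8% against 22.9% of all genes, were HNRNPA0, at 62.2, 69.8 and 30.7 (2.27-fold, 2.12 to 2.43), HNRNPH3 (2.18-fold, 2.05 to 2.31), HNRNPH1 (2.14-fold, 2.07 to 2.21) and HNRNPDL, at 164, 197 and 94.3 (2.09-fold, 1.97 to 2.22). That count was 0 under median ratio (all genes 11.6%), upper quartile (12%) and TMM (11%). It was 2 without the 20 most abundant genes (19.7%) and 13 with the ribosomal scaling (58.7%). HNRNPAB had the smallest difference, at 62.3, 57.2 and 44.6. HNRNPUL1, at 33.8, 51.1 and 26.8, and HNRNPLL, at 12.3, 8.73 and 5.65, differed most in F5 against 6 mm, by 0.58 and -0.45. HNRNPA3, HNRNPD, HNRNPM, HNRNPR and HNRNPU had differences of -0.75 to -0.64 in F1 against F5.

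HNRNPD and HNRNPDL lie next to each other on chromosome 4, 3152 bases apart on the plus strand. Their ratio was 0.771 (0.726 to 0.818) in 6 mm, 0.661 (0.623 to 0.701) in F5 and 0.843 (0.779 to 0.911) in F1. The F5 interval lay below both others, which overlapped. The span of HNRNPH1, on chromosome 13 at 12896978 to 12911863, shares 5377 bases with that of dAK on the other strand. dAK stood at FPKM 43.9, 87.5 and 5.90. Without strand in the counting, reads from both genes cannot be told apart in the shared stretch. Of the 84 genes, 12 overlap another gene in the files by span, 6 on the other strand and 6 on the same strand. Relatives of similar sequence, such as HNRNPH1 and HNRNPH3, HNRNPD and HNRNPDL or PRPF38A and PRPF38B, are uncertain to the extent that reads could fit both.

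In F1 against F5 the LSM genes spanned the widest range of any group, from -2.27 to 1.41. LSM2 to LSM8 proteins form the ring on U6 in the nucleus, and in the cytoplasm a ring with LSM1 in the place of LSM8 joins the decapping and decay of messenger RNA. LSM1 stood at FPKM 34.5 in 6 mm, 38.8 in F5 and 104.9 in F1, while LSM8 stood at 21.2, 21.3 and 9.63. Both were level from 6 mm to F5 and parted in F1, where LSM1 was 2.70-fold higher (2.40 to 3.05) and LSM8 2.21-fold lower (1.71 to 2.89). The ratio of LSM1 to LSM8, chosen after the values were seen, was 1.63 (1.37 to 1.94), 1.82 (1.53 to 2.18) and 10.9 (8.74 to 13.7). LSM1 was the only splicing gene higher in F1 than in F5 under every scaling, and the difference was under 2-fold with the ribosomal scaling (0.70).

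LSM1 lies beside STAR, the gene of the protein that brings cholesterol into mitochondria for steroid synthesis. The files place LSM1 on chromosome 22 at 2268642 to 2270014 and STAR at 2263879 to 2266815, both on the minus strand with a gap of 1826 bases. STAR stood at FPKM 2.14, 55.1 and 599, so it was also highest in F1, and it was higher in F5 than in 6 mm by 4.16 on the log2 scale where LSM1 differed by 0.16. BAG4 overlaps the span of LSM1 by 67 bases on the other strand and stood at 33.3, 37.5 and 29.7. The part of STAR reads in the LSM1 value was not tested.

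Of the shared proteins of both LSM rings, the 4 measured were lower in F1. LSM6 stood at FPKM 25.2, 16.9 and 4.68, 3.61-fold lower in F1 than in F5 (2.62 to 5.04), on 285, 181 and 50 reads. LSM7 stood at 42.9, 20.1 and 10.46 and was 2.13-fold lower in F5 than in 6 mm (1.88 to 2.42). LSM4 stood at 43.4, 32.3 and 19.1, and LSM5 at 12.2, 8.79 and 5.44. Every one of these 4 was highest in 6 mm and lowest in F1. LSM10 and LSM11, which are part of the ring on U7 for the 3′ ends of histone mRNA, stood at 14.7, 13.4 and 8.67 and at 8.12, 7.81 and 5.64.

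LSM14A and LSM14B are relatives that repress translation in cytoplasmic granules, and LSM14B is known in the mouse for its part in oocyte maturation. LSM14B stood at FPKM 137 in 6 mm, 109.4 in F5 and 21.8 in F1, while LSM14A stayed at 39.5, 35.6 and 33.2. LSM14B was 5.01-fold lower in F1 than in F5 (4.48 to 5.62), the largest difference of any splicing gene with FPKM of at least 10 in either library, and LSM14A was 1.07-fold lower (0.95 to 1.21). The ratio of LSM14A to LSM14B, chosen after the values were seen, was 0.289 (0.265 to 0.314), 0.325 (0.296 to 0.357) and 1.52 (1.33 to 1.74), so the more abundant of the pair was LSM14B in 6 mm and F5 and LSM14A in F1. The summed oocyte markers, given above, were lowest in F1 as well, and their part in the LSM14B value was not tested. By span LSM14B shares 182 bases with PSMA7 on the other strand, which stood at 50.3, 40.7 and 23.5.

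**Figure D5:**
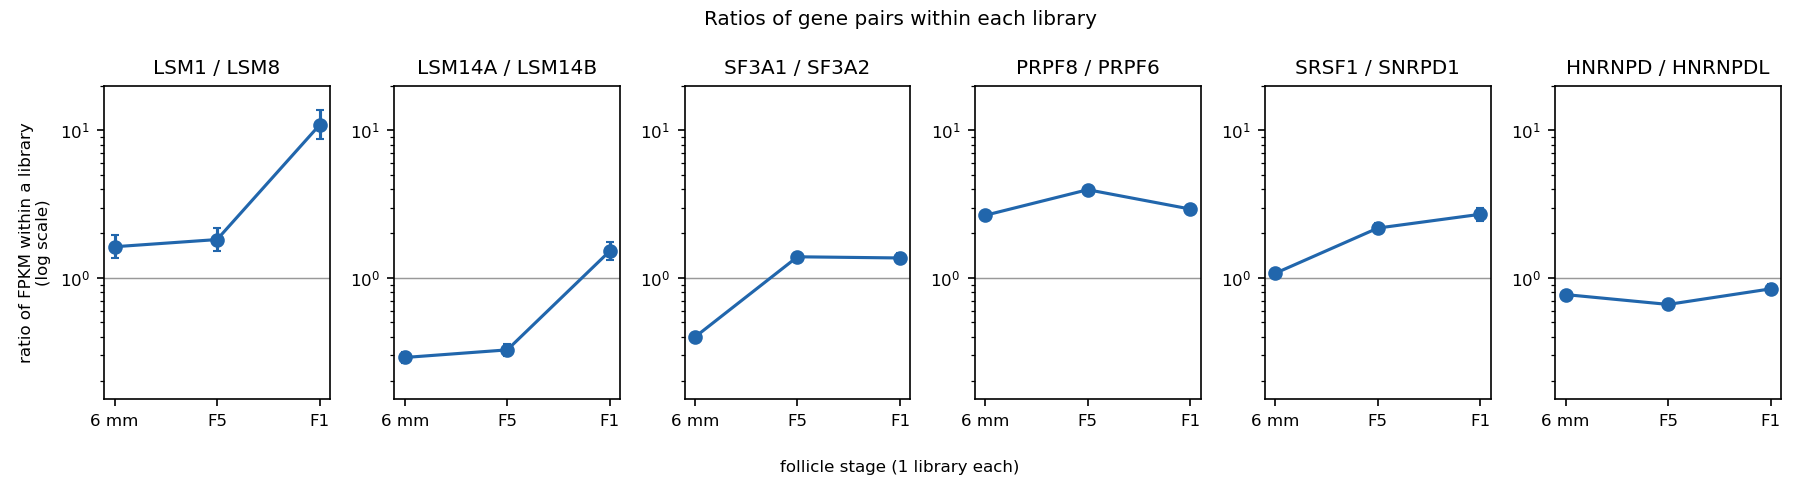
Ratio of FPKM between 2 genes of the same library (log scale) for 6 pairs in 6 mm, F5 and F1, with exact 95% counting intervals as bars. LSM1 over LSM8 goes to 10.9 and LSM14A over LSM14B to 1.52 in F1, while SF3A1 over SF3A2, PRPF8 over PRPF6 and SRSF1 over SNRPD1 already differ between 6 mm and F5, and HNRNPD over HNRNPDL stays between 0.661 and 0.843.

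RBM is the most mixed group. Of 25 genes, 23 were measured in F1 against F5, and all 23 were lower, against 78.1% of all genes, with a median of -0.81. At least 2-fold lower were 7, or 30.4%, against 22.9% of all genes. Under TMM 14 of 23 were lower, against 49.2% of all genes, and 1 by 2-fold, against 11%. RBM5, a splicing regulator of apoptosis genes, was the most abundant at FPKM 172, 167 and 77.6. RBM22, which contacts the catalytic RNA, stood at 63.2, 56.9 and 45.5, and RBM14, a paraspeckle protein, at 42.5, 58.1 and 24.2. RBM14 was 2.40-fold lower in F1 than in F5 (2.19 to 2.62). RBM38, a p53 target that acts on the stability of the p21 message, stood at 26.4, 16.0 and 6.93. RBM26 (13.6, 9.70 and 9.59) and RBM33 (22.4, 13.5 and 12.1) were nearly level from F5 to F1.

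RBM47, a cofactor of cytidine deamination of RNA that also acts in splicing, had the largest difference between 6 mm and F5. It stood at FPKM 7.62 in 6 mm, 52.0 in F5 and 23.9 in F1, on 68, 440 and 201 reads. It was 6.83-fold higher in F5 than in 6 mm (5.28 to 8.95) and 2.18-fold lower in F1 than in F5 (1.84 to 2.59), and higher in F1 than in 6 mm under every scaling. RBM24, known for splicing in muscle, went the other way at 10.8, 4.50 and 2.45 and was 2.40-fold lower in F5 than in 6 mm (2.06 to 2.80). The theca and smooth muscle markers given above were also highest in 6 mm, and their part in the RBM24 value was not tested.

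Low-level RBM genes are named after their values were seen. RBM43 stood at FPKM 5.03, 4.19 and 0.746, 5.62-fold lower in F1 than in F5 with a wide interval (3.16 to 10.8) from 79 and 14 reads. NMI, 307 bases away on the same strand, stood at 47.0, 18.4 and 4.77. RBM20, known for splicing of titin in the heart, stood at 0.726, 1.13 and 0.0785, on 49, 72 and 5 reads. RBM44 and RBM46 stayed under FPKM 1 in all 3 libraries and entered no comparison. RBM39, a U2AF-related splicing factor, stood at 39.1, 37.8 and 24.5, and lies within the span of CPNE1 on the same strand, which stood at 43.7, 40.9 and 6.33. The other 12 RBM genes ran from -1.09 for RBM17 and RBM34 to -0.31 for RBM19 in F1 against F5.

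Genes of the same pathway whose names the rule does not take were listed with earlier results of these data known. Of 158 listed, 127 are in the files. In F1 against F5 121 were measured. At least 2-fold lower were 20, or 16.5%, against 22.9% of all genes, and 1 was higher, against 5.09%. Below 0 were 112, or 92.6%, against 78.1%, and the median was -0.60. That lies between the splicing genes (-0.73) and all genes (-0.53). The medians of the 7 lists ran from -0.73 for splicing regulators (8 of 28 at least 2-fold lower) to -0.47 for the PRP19 complex and catalytic spliceosome (0 of 23, with 23 of 23 below 0) and for SR protein kinases (3 of 15). U2 recruitment genes had a median of -0.56 (0 of 12), snRNP assembly -0.58 (4 of 15), snRNP and tri-snRNP proteins -0.60 (3 of 11), and the exon junction complex with export -0.68 (2 of 17).

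By the size of the difference, a few of these genes are named. TGS1, which adds the trimethylated cap to small nuclear RNAs, stood at FPKM 65.6, 17.1 and 4.14, 3.83-fold lower in F5 than in 6 mm (3.63 to 4.05) and 4.13-fold lower in F1 than in F5 (3.70 to 4.63). EFTUD2, the GTPase of the U5 particle, stood at 107.3, 82.5 and 33.6 and was 2.45-fold lower in F1 than in F5 (2.28 to 2.64). NOVA1, known from neuronal splicing, stood at 10.1, 6.61 and 1.35, and UPF1, the helicase of nonsense-mediated decay, at 47.9, 39.3 and 17.7. CELF2, a regulator of alternative splicing, was the gene at least 2-fold higher in F1, at 2.34, 0.996 and 9.09. KHDRBS3 (1.92, 11.8 and 11.8) and PTBP3 (116, 43.5 and 45.7), named after their values were seen, differed between 6 mm and F5 and not much after.

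Of other housekeeping machinery in the same libraries, medians in F1 were less far down or above 0. Cytosolic ribosomal protein genes had a median of 0.72 in F1 against F5, with 62 of 63 above 0 (all genes 21.9%) and 6 at least 2-fold higher (all genes 5.09%). Proteasome genes had a median of -0.22, with 22 of 28 below 0, which is 78.6% against 78.1% of all genes, and none at least 2-fold lower, against 22.9%. Proliferation genes went further down than the splicing genes, with 15 of 16 at least 2-fold lower in F1, against 22.9% of all genes, and a median of -2.77. Their part in the level of the splicing genes was not tested.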

How the data were processed

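Per the labels' protocols, libraries were made from poly-A RNA with random hexamer primers. TopHat2 (version 2.0.12) and HTSeq (version 0.6.1) are named in the submitters' processing notes, and no source used here names the genome build. The authors deposited FPKM values for 19309 genes per library. Every value above 0 proved to be a whole number of reads over a whole length and the library's total (17019 of 17019 genes, largest relative deviation 1.92e-14). Recovered reads, which made up 94.7%, 93.8% and 94.8% of the totals, served for the exact 95% intervals of FPKM and of ratios. Each gene's reads are the smallest whole numbers that fit its values, so its true reads may be a whole multiple of those given. Where they are, the intervals given for that gene are too wide. Such intervals leave out all variation between animals.

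As each stage has a single library, nothing was tested and no count model was used. Differences used log2(FPKM + 1), which understates low genes, over genes with FPKM of at least 1 in either library. Of the 84 symbols, 79 are in RefSeq's gene table. The computation was tested on simulated data.

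The members, the lists and the pairs were chosen with earlier results of these data known. Named per group were the 3 genes of highest mean FPKM, the 4 with the largest and the 2 with the smallest difference in F1 against F5, the 2 with the largest in F5 against 6 mm (the largest at FPKM of at least 5), any at least 2-fold against the group, and up to 3 per list. One gene that this rule takes is not reported here. Other genes were named after their values were seen. Alternatives were 6 scalings, 2 other pseudocounts and other filters, and a centring added after the data were seen. Python 3.11.15, numpy 2.4.6, pandas 2.3.3, scipy 1.17.1 and matplotlib 3.10.9 were used.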

Additional observations from a re-analysis of the deposited data

How the results depend on the processing

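Counts at 2-fold and medians moved with the scaling. In F5 against 6 mm the median of the splicing genes was -0.06 as deposited, -0.26 at an equal sum, -0.19 without the 20 most abundant genes and -0.20 with the ribosomal scaling. It changed sign to 0.061 with median ratio, 0.0032 with the upper quartile, 0.13 with TMM and 0.0026 when centred on genes of FPKM 10 or more, an alternative chosen after seeing the data. The count of 2 genes lower was 0 with median ratio, TMM and pseudocount 5, and 1 with the upper quartile and that centring. Of all genes, 8.51% (median ratio), 8.6% (TMM) and 9.4% (upper quartile) were at least 2-fold lower. That share was 14.6% at an equal sum, 12.9% without the 20 genes and 13% with the ribosomal scaling. In F1 against F5 the median of -0.73 was -0.85, -0.64, -0.13, -0.17, -0.12 and -1.43 under the scalings in the order equal sum, without the 20 genes, median ratio, upper quartile, TMM and ribosomal, and -0.22 with the centring. The count of 19 lower was 8 without the 20 genes and 3 with median ratio, upper quartile, TMM and the centring. It was 72 with the ribosomal scaling and 9 at pseudocount 5. The 1 higher gene became 0 with the ribosomal scaling, where 2.53% of all genes were at least 2-fold higher. In F1 against 6 mm the median of -0.79 was -1.10 (equal sum), -0.064 (median ratio), -0.16 (upper quartile), -0.055 (TMM), -1.63 (ribosomal) and -0.20 (centring). The count of 24 lower was 46 (equal sum), 7 (median ratio, upper quartile and centring), 6 (TMM) and 76 (ribosomal). Of all genes, 45.2% (equal sum), 17.3% (median ratio), 18.6% (upper quartile), 16.7% (TMM) and 67.7% (ribosomal) were at least 2-fold lower. The 2 higher genes became 0 with the ribosomal scaling, where 3.76% of all genes were at least 2-fold higher. The other 68 values were counts within 1.5 times of the deposited one or medians that moved little, among them moves of the lower counts from 2 to 3 (both equal sums and ribosomal scaling) in F5 against 6 mm, from 24 to 16 (pseudocount 5) and 29 (pseudocount 0.1) in F1 against 6 mm and from 19 to 24 (equal sum) in F1 against F5. No paired analysis was possible because each stage has 1 library and its replicate number names a sample only. With 1 library per stage no replicate could be left out, and the depth limits genes such as RBM20 and RBM43, on 5 and 14 reads in F1.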

Other observations

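Among the splicing genes, the measured Sm ring genes and the measured genes shared by both LSM rings were alike in their order of libraries. The 5 Sm ring genes measured were SNRPD1, SNRPD3, SNRPE, SNRPF and SNRPG, and the 4 shared LSM ring genes measured were LSM4, LSM5, LSM6 and LSM7. All of them were lower in F5 than in 6 mm (all genes 58.6%) and lower again in F1 (all genes 78.1%). SNRPD3 and SNRPF, however, were higher in F1 than in F5 with median-ratio scaling, by 0.34 and 0.03. Their median differences were -0.47 and -0.49 in F5 against 6 mm, where that of all genes was -0.13, and -0.85 and -0.80 in F1 against F5, where that of all genes was -0.53. Both rings were put together after their values were seen, and the comparisons share the F5 library. Neither ring is complete, as no gene named SNRPB, SNRPD2, LSM2 or LSM3 was among the splicing genes. The LSM genes that differ between the 2 LSM rings were left out of the set and had other orders of libraries. LSM8 stood at FPKM 21.2 in 6 mm, 21.3 in F5 and 9.63 in F1, and LSM1 at 34.5, 38.8 and 104.9.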
